A study of Rattus norvegicus with 40 samples.

Results

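Soleus muscle and hippocampus of wild-type rats were compared, with 5 samples of each tissue out of 40 samples in the series. All 10 samples came from rats of the SHR/OlaIpcv strain, an inbred strain with spontaneous hypertension, whose Tti2 gene was intact. The rats were the wild-type controls of a study of animals with 1 disrupted copy of Tti2 (Tti2+/-), in which liver and fat were also sequenced, and no treatment was named. Soleus samples came from rats 2, 3, 4, 5 and 6 and hippocampus samples from rats 1, 2, 3, 5 and 6, so that 4 rats gave both tissues. The sequenced samples were those with the best RNA quality of each tissue, and the whole tissue was extracted, so the values describe mixtures of cells. The age of the sequenced rats was not given in the sources used here.

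The soleus is a slow postural muscle of the calf. Its fibres are long, multinucleated cells filled with contractile filaments and mitochondria, and they work for long periods on oxidative metabolism. The hippocampus is a brain region that serves memory and holds many kinds of excitatory and inhibitory neurons together with astrocytes, oligodendrocytes, microglia and blood vessel cells. The question put to these samples was how the 2 transcript pools are built: how many transcripts each tissue expressed, how much of the pool the most abundant ones held, how long they were, how many were found in 1 of the tissues, and how far rats differed within a tissue.

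Abundance was read in 2 units. TPM gives the level of a transcript as its share of all transcript molecules, scaled so that each sample has the same sum, after division of its reads by its effective length. The estimated count gives the reads assigned to a transcript and grows with its length. Total estimated counts were between 23384741 and 27426073 in soleus muscle and between 19176393 and 32713126 in hippocampus, where rat 2 was the deepest. The files listed 31715 transcripts by identifier, without gene names. The tissues could therefore not be checked against their marker genes, and transcripts are described by identifier, rank, length and level.

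The hippocampus sample of rat 2 stood apart from the other 4. It held 85 transcripts at 10 TPM or more that were at least 5-fold above the highest of the other 4 hippocampus samples, against 2 to 6 such transcripts in each of those. These 85 transcripts held 0.759% of its TPM, and the highest stood at 2753 TPM. Of the 85, 10 reached a mean of 10 TPM in soleus muscle, 18 in fat and 8 in liver, and 27 in at least 1 of these tissues. Of all 31715 transcripts, 5016 on average were at 10 TPM or more in a soleus sample, so 10 of 85 is not above that share. No such number is given here for fat and liver. Transcripts at 10 TPM or more in every soleus sample and under 0.1 TPM on average in the other hippocampus samples summed to 75.0 TPM in rat 2, of which 30.5 TPM came from transcripts of at least 300 bases. In hippocampus of rats 1, 3, 5 and 6 the sum for transcripts of at least 300 bases was between 2.99 and 6.40 TPM. The list was formed for each sample from the other 4, with 108 transcripts for rat 2 and 98 to 104 for the others. For rats 1, 3, 5 and 6 it could thus leave out transcripts that were raised in rat 2. The sums therefore cover unlike lists, and part of their difference may come from this choice. Results that rest on this sample are given with and without it where both were run. Within soleus muscle, rat 2 had 10 transcripts of this kind, which held 1.37% of its TPM, and the other 4 rats had 1 to 7.

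More transcripts were expressed in hippocampus than in soleus muscle. At a level of 1 TPM or more, soleus muscle had 13105, 12989, 13115, 13748 and 13726 transcripts in rats 2, 3, 4, 5 and 6. Hippocampus had 17629, 18095, 18036, 17992 and 18001 transcripts in rats 1, 2, 3, 5 and 6. Every hippocampus sample was above every soleus sample. The means were 13337 ± 369 and 17951 ± 184 (SD, n = 5 each), a difference of -4614 transcripts for soleus minus hippocampus by a two-sided exact permutation test (p = 0.00794, Benjamini-Hochberg adjusted p = 0.011 over 25 single values). With 5 samples against 5, 0.00794 is the smallest p this test can give. In bulk tissue, fewer cells of a type and less RNA per cell cannot be told apart.

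The gap was widest in proportion at intermediate levels and turned round among the most abundant transcripts. At 10 TPM or more there were 5016 ± 153 transcripts in soleus muscle and 10124 ± 166 in hippocampus. At 100 TPM or more there were 741 ± 15.5 and 1421 ± 77.7. At 1000 TPM or more soleus muscle was the higher tissue, with 80.2 ± 2.28 transcripts against 57.4 ± 0.894, and again no sample of one tissue overlapped with the other (adjusted p = 0.011 at each of these levels by the exact permutation test, n = 5 each). Transcripts whose estimated count rounded to 0 numbered 11068 ± 279 in soleus muscle and 8740 ± 381 in hippocampus. A count of 0 allows a level of up to 0.0917 to 0.156 CPM, or 3 counts of the total, depending on the sample. After every sample was thinned to the lowest total, transcripts with at least 5 counts still numbered 17463 ± 345 in soleus muscle and 20405 ± 160 in hippocampus. Thinning levels the total and not the part left for less abundant transcripts. The 100 most abundant held 67.2% of the TPM in soleus muscle and 39.2% in hippocampus. A level in TPM is likewise a share of the pool, and how far this moved the numbers expressed was not tested.

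A few transcripts held most of the soleus pool, while the hippocampal pool was spread over many. The number of transcripts needed to reach 50% of the TPM was 26, 24, 25, 26 and 26 in the soleus samples of rats 2, 3, 4, 5 and 6. In hippocampus it was 319, 255, 382, 346 and 374 in rats 1, 2, 3, 5 and 6, and rat 2 was the lowest. All soleus samples needed fewer transcripts than any hippocampus sample (means 25.4 ± 0.894 and 335 ± 51.3, adjusted p = 0.011, exact permutation test, n = 5 each). The numbers moved with the measure, and the order did not. Of the estimated counts, 50% were reached with 55.8 transcripts on average in soleus muscle and 1013 in hippocampus. Of the TPM of transcripts with at least 300 bases, 50% were reached with 23.6 and 408 transcripts, and with 30.2 and 522 when their lengths also went without bias correction (exact permutation p = 0.00794 for each). To reach 90% of the TPM, 1717 ± 123 transcripts were needed in soleus muscle and 6062 ± 141 in hippocampus.

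**Figure D1:**
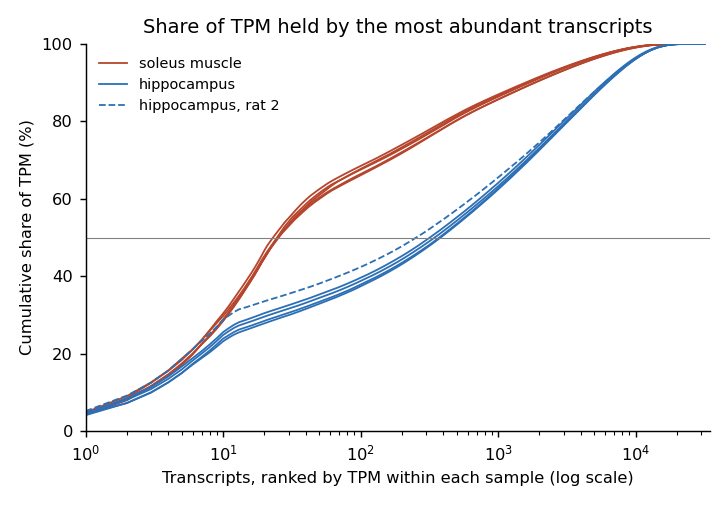
Cumulative share of TPM (%, vertical axis) against the rank of each transcript within its sample (horizontal axis, log scale), with 1 line for each of the 5 soleus samples and 5 hippocampus samples and a dashed line for hippocampus of rat 2. At rank 10 the soleus lines are at 28.4% to 30.4% and the hippocampal lines at 23.2% to 28.7%, the latter in rat 2. The lines separate widely beyond it and cross the grey line at 50% at 24 to 26 transcripts in soleus muscle and 255 to 382 in hippocampus.

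The share of the most abundant transcripts was higher in soleus muscle, by less over the first 10 ranks than over the first 100, and the difference over 10 ranks was larger in counts than in TPM. The single most abundant transcript of each sample held 4.41% ± 0.254 of the TPM in soleus muscle and 4.57% ± 0.381 in hippocampus (adjusted p = 0.518, exact permutation test, n = 5 each). The 10 most abundant transcripts held 28.4%, 30.4%, 28.6%, 29.7% and 28.8% of the TPM in the soleus samples of rats 2, 3, 4, 5 and 6. They held 25.5%, 28.7%, 23.2%, 24.8% and 23.9% in hippocampus of rats 1, 2, 3, 5 and 6. The groups overlapped through hippocampus of rat 2. The means differed by 3.95 percentage points (adjusted p = 0.0313, exact permutation test, n = 5 each), and by 4.82 points without hippocampus of rat 2, when the groups did not overlap. Read as estimated counts, which do not divide by length, the 10 most abundant transcripts held 26.2% of the counts in soleus muscle and 8.99% in hippocampus, a difference of 17.3 points (exact permutation p = 0.00794). Over 100 transcripts the shares were 67.2% ± 0.993 and 39.2% ± 1.97, and over 1000 transcripts 86.3% ± 0.576 and 63.6% ± 1.25 (adjusted p = 0.011 for both).

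The lists of most abundant transcripts were shared in part. Ranked by mean TPM, 7 of the 10 most abundant transcripts were the same in both tissues, and these 7 held 20.4% ± 1.20 of the soleus TPM and 20.4% ± 1.76 of the hippocampal TPM. The 3 others of the soleus list held 8.39% ± 0.696 in soleus muscle and 0.00237% ± 0.000310 in hippocampus. Among the 100 most abundant, 38 were common to both lists. The 62 found in the soleus list alone held 31.5% ± 1.39 of the soleus TPM and 1.23% ± 0.0556 of the hippocampal TPM. The 62 found in the hippocampal list alone held 7.77% ± 0.380 of the hippocampal TPM and 0.972% ± 0.0743 of the soleus TPM. These lists were ranked on the same samples, so the shares are descriptions without a test.

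The most abundant transcript of both tissues was ENSRNOT00000046108.3, which has 681 bases. Its TPM was 41034, 43665, 44490, 48232 and 37914 in soleus muscle of rats 2, 3, 4, 5 and 6, and 45702, 51649, 41072, 45326 and 44629 in hippocampus of rats 1, 2, 3, 5 and 6. The groups overlapped. On the count scale with TMM, which sets the bulk of transcripts level between samples, it was higher in soleus muscle (log2 fold change 1.27 ± 0.0993, SE, edgeR adjusted p = 4.84e-07), and with scaling by total count it did not pass (log2 fold change 0.15, adjusted p = 0.14). Whether it was called therefore depended on the scaling.

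The second transcript of the soleus ranking, ENSRNOT00000024084.6 with 1436 bases, was high in muscle on each scale used. It reached 42265, 41650, 37929, 35875 and 37041 TPM in soleus muscle of rats 2, 3, 4, 5 and 6. In hippocampus it stood at 14.1, 10.4, 12.6, 12.2 and 13.1 TPM in rats 1, 2, 3, 5 and 6, where it ranked 9121st. The log2 fold change was 12.88 ± 0.176 (SE, edgeR adjusted p = 3.72e-12) with TMM and 11.76 with total count. Its mean was 0.162 TPM in wild-type liver and 3.85 TPM in fat.

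The 2 most abundant transcripts called higher in hippocampus were lower in rank and were not confined to it. ENSRNOT00000093150.1 has 105 bases and an effective length of 4.44 bases, so that 349 reads or fewer gave its TPM in every sample. It stood at 754, 533, 435, 744 and 1036 TPM in soleus muscle of rats 2, 3, 4, 5 and 6 and at 3267, 3283, 4195, 3664 and 3674 TPM in hippocampus of rats 1, 2, 3, 5 and 6. No hippocampus sample overlapped with soleus muscle (log2 fold change -0.97 ± 0.199, SE, edgeR adjusted p = 0.00102). In Tti2+/- rats its log2 fold change was -0.37, which is under the fold limit. ENSRNOT00000091574.1, with 1126 bases, stood at 113, 96.2, 129, 249 and 180 TPM in the same soleus samples and at 3804, 3086, 3614, 3808 and 3660 TPM in the same hippocampus samples (log2 fold change -3.14 ± 0.222, SE, edgeR adjusted p = 2.13e-07). This transcript had a mean of 15119 TPM in wild-type liver, above its level in hippocampus.

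Of 20656 transcripts with enough counts to be tested, 70.0% differed between the tissues. With edgeR's quasi-likelihood test, calls at an adjusted p under 0.1 and 1.5-fold or more gave the following split. In soleus muscle, 6419 transcripts (31.1%) were higher, and in hippocampus 8036 (38.9%). Of these, 5733 and 7291 had no overlap between the samples of the 2 tissues. Over all tested transcripts 69.6% had no overlap, in either direction. The 95% interval of the fold change lay within 1.5-fold of no difference for 2201 transcripts, or 10.7% of those tested.

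Up to 100-fold, large differences were more often towards hippocampus. At least 10-fold differences were called for 1310 transcripts higher in soleus muscle and 3149 higher in hippocampus. At least 100-fold differences were called for 415 and 1412. Some of these had 3 counts or fewer in every sample of the other tissue, where the fitted fold change depends on the prior count, and without them 217 and 435 transcripts had an at least 100-fold difference. At 1000-fold or more there were 195 and 413 transcripts, and without those at 3 counts or fewer 78 and 57, so that the order turned round. This turn rests on the filter, which took out 117 on the soleus side and 356 on the hippocampal side. These fold classes were formed with TMM. The transcripts at least 100-fold higher in soleus muscle held 31.8% ± 1.24 of the soleus TPM, and those at least 100-fold higher in hippocampus held 8.09% ± 0.464 of the hippocampal TPM. So fewer transcripts on the soleus side held a larger share of the pool, by a fold that chose them and with no test.

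**Figure D2:**
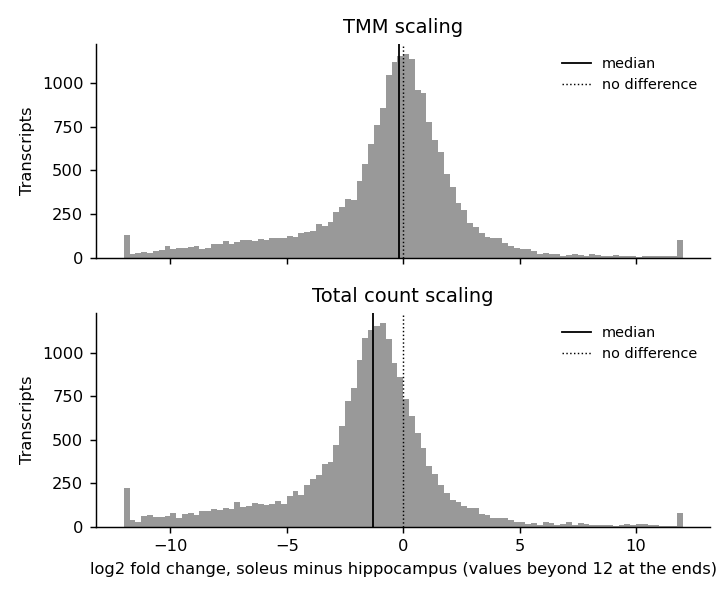
Number of tested transcripts (vertical axis) by log2 fold change of soleus minus hippocampus (horizontal axis, values beyond 12 drawn at the ends), with TMM scaling above and total count scaling below. The solid line marks the median, -0.18 with TMM and -1.30 with total count, and the dotted line marks no difference.

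How the calls split between the tissues depended on the scaling. TMM factors were between 0.647 and 0.717 in soleus muscle and between 1.45 and 1.502 in hippocampus, and going from total count to TMM moved the log2 fold changes up by 1.12. With TMM, 44.4% of the calls were higher in soleus muscle. With total count, 3067 transcripts were higher in soleus muscle and 13132 in hippocampus, so that 18.9% of the calls were on the soleus side. All 8036 transcripts called higher in hippocampus with TMM were also called higher there with total count, and 3067 of the 6419 called higher in soleus muscle were also called there. Of the 6419, 1686 had a negative log2 fold change with total count. The plot of fold changes under both scalings shows this shift as a move of the whole distribution. Which scaling matches the RNA content per cell was not tested, and no added RNA standard is named in the sources used here.

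The soleus pool consisted of shorter transcripts. The mean length weighted by TPM was 1382, 1368, 1384, 1355 and 1375 bases in soleus muscle of rats 2, 3, 4, 5 and 6, and 1600, 1566, 1651, 1633 and 1659 bases in hippocampus of rats 1, 2, 3, 5 and 6. No sample of one tissue overlapped with the other (means 1373 ± 11.9 and 1622 ± 38.5 bases, difference -249, adjusted p = 0.011, exact permutation test, n = 5 each). Without the 100 most abundant transcripts of each sample the means were 1811 ± 17.9 and 2091 ± 21.0 bases, a gap of similar size. Weighted by estimated counts, which favour long transcripts, the means were 3136 ± 31.1 and 3201 ± 42.7 bases, the groups overlapped, and the difference did not pass (adjusted p = 0.0595, exact permutation test, n = 5 each).

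The lists of expressed transcripts differed less in length than the pools did. The median length of transcripts at 1 TPM or more was 1997, 2004, 2001, 2001 and 2010 bases in soleus muscle of rats 2, 3, 4, 5 and 6 and 2067, 2063, 2068, 2069 and 2070 bases in hippocampus of rats 1, 2, 3, 5 and 6. The difference of -64.8 bases exceeded the spread between rats (adjusted p = 0.011, exact permutation test, n = 5 each). At 0.1 TPM or more it was -3.4 bases and did not exceed that spread (exact permutation p = 0.548). At 100 TPM or more the medians were 1016 ± 9.98 and 1455 ± 35.7 bases (adjusted p = 0.011). At 1000 TPM or more they were 910 ± 66.0 and 870 ± 67.6 bases, and the groups overlapped (adjusted p = 0.397).

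By length class, the largest difference in TPM share lay between 2000 and 4000 bases. Transcripts of this class held 9.41% ± 0.167 of the TPM in soleus muscle and 20.003% ± 0.739 in hippocampus. Transcripts of 1000 to 2000 bases held 38.5% ± 0.768 and 31.4% ± 0.373, and those of 500 to 1000 bases held 29.1% ± 0.799 and 22.9% ± 0.865. Above 4000 bases the shares were again higher in hippocampus, at 6.42% ± 0.306 against 4.95% ± 0.115 up to 8000 bases. Each of these classes differed between the tissues (adjusted p = 0.00952 over 6 classes, exact permutation test, n = 5 each). Below 500 bases the shares were 17.7% ± 1.02 and 18.7% ± 0.728 and did not pass (adjusted p = 0.119).

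**Figure D3:**
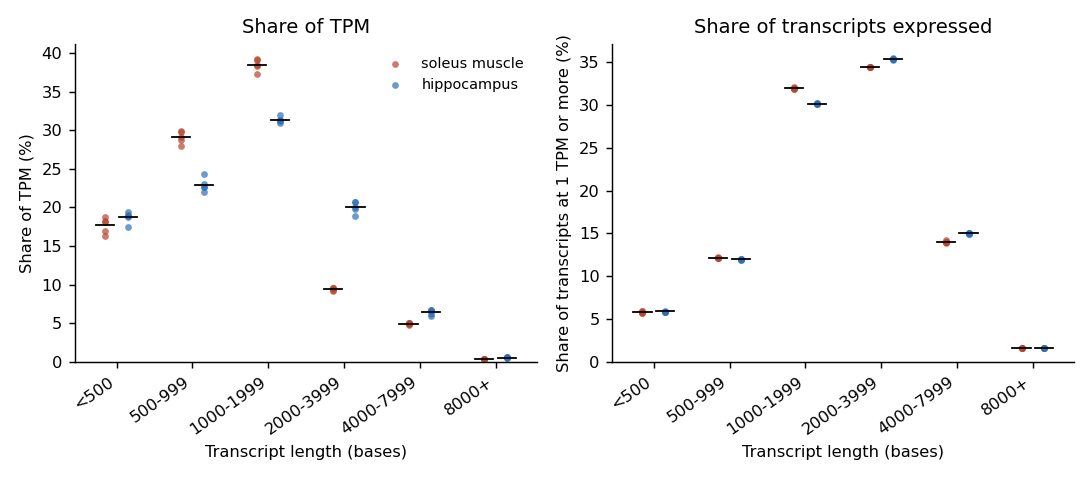
Share of TPM (left, %) and share of the transcripts at 1 TPM or more (right, %) in each length class in bases (horizontal axes), with 1 point per sample, 5 per tissue, and a bar at the mean. The shares of TPM separate most between 2000 and 4000 bases, at 9.41% in soleus muscle and 20.003% in hippocampus, while the shares of expressed transcripts lie within about 2 percentage points of each other in every class.

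The calls followed length as well. Among tested transcripts under 500 bases, 40.1% of 843 were called higher in soleus muscle and 31.0% higher in hippocampus. Among 3202 transcripts of 4000 to 8000 bases, 24.4% were called higher in soleus muscle and 47.6% higher in hippocampus, against 31.1% and 38.9% over all tested. The median log2 fold change fell from 0.25 in the shortest of these classes to -0.58 in the other, beside -0.18 over all. At 8000 bases or more it was -0.48, so the fall did not continue into the longest class. Effective length, the part of a transcript that the quantification counts as able to yield fragments, moved with tissue. Its median was between 94.95% and 95.6% of the full length in soleus muscle and between 89.4% and 90.3% in hippocampus, for transcripts over 500 bases. Over transcripts of at least 300 bases, the weighted mean length was 1488 bases in soleus muscle and 1776 in hippocampus. With TPM of these transcripts computed again from lengths without this correction it was 1510 and 1832 bases, so that the differences were -288 and -322 bases.

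Although the soleus pool was shorter on average, several of the longest transcripts of the files were higher in soleus muscle. The longest, with 25658 bases, stood between 79.8 and 93.7 TPM in the 5 soleus samples and at 0.121 TPM or less in hippocampus (log2 fold change 11.73, edgeR adjusted p = 2.94e-08). The next, with 24093 bases, stood between 44.4 and 49.8 TPM in soleus muscle and at 0.0729 TPM or less in hippocampus (log2 fold change 11.67, adjusted p = 5.21e-10). A transcript of 22488 bases stood between 83.2 and 102 TPM in soleus muscle and at 0.282 TPM or less in hippocampus. Of the 8 longest transcripts, 6 were tested, of which 4 were called higher in soleus muscle and 2 higher in hippocampus, beside 31.1% and 38.9% of all tested transcripts. Among the latter was one of 23508 bases at 8.98 TPM or more in every hippocampus sample and 0.627 TPM or less in soleus muscle. Of the 4 called higher in soleus muscle, the one of 23724 bases had the higher TPM in hippocampus, at 31.6 against 18.7, so that its direction depended on the scale. The 8 longest did not stand for long transcripts in general. Of 370 tested transcripts of 8000 bases or more, 25.9% were called higher in soleus muscle and 45.1% higher in hippocampus.

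Most transcripts expressed in soleus muscle were also expressed in hippocampus, and fewer the other way round. At 1 TPM or more in all 5 samples there were 11855 transcripts in soleus muscle and 16351 in hippocampus, and 10894 in all 10 samples. These shared transcripts were 91.9% of the soleus list and 66.6% of the hippocampal list. They held 80.4% of the mean TPM in soleus muscle and 86.3% in hippocampus. Their median level was 7.95 TPM in soleus muscle and 20.5 TPM in hippocampus. TPM is a share of each pool, and the size of such a gap depends on the scale. Over all tested transcripts, the median log2 fold change was -0.18 with TMM and -1.30 with total count. In no hippocampus sample did 450 of the soleus transcripts (3.80%) reach 1 TPM, and in no soleus sample did 3537 of the hippocampal transcripts (21.6%).

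Transcripts restricted to 1 of the 2 tissues were fewer in soleus muscle but made up more of its pool. A transcript was counted as restricted when it was at 1 TPM or more in all 5 samples of one tissue and under 0.1 TPM in all 5 of the other. By this rule 133 transcripts were restricted to soleus muscle (1.12% of those expressed there) and 1112 to hippocampus (6.80%). Without hippocampus of rat 2 the numbers were 169 and 1181. The 133 held 6.47% ± 0.318 of the soleus TPM, between 5.95% and 6.74% in single samples. The 1112 held 3.07% ± 0.223 of the hippocampal TPM, between 2.69% and 3.23%. The levels differed at the top: 5 of the soleus-restricted transcripts were above 1000 TPM on average and the highest stood at 25610 TPM, while 0 of the hippocampus-restricted ones were and the highest stood at 689 TPM. Their medians, 13.8 and 10.3 TPM, lay closer together.

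**Figure D4:**
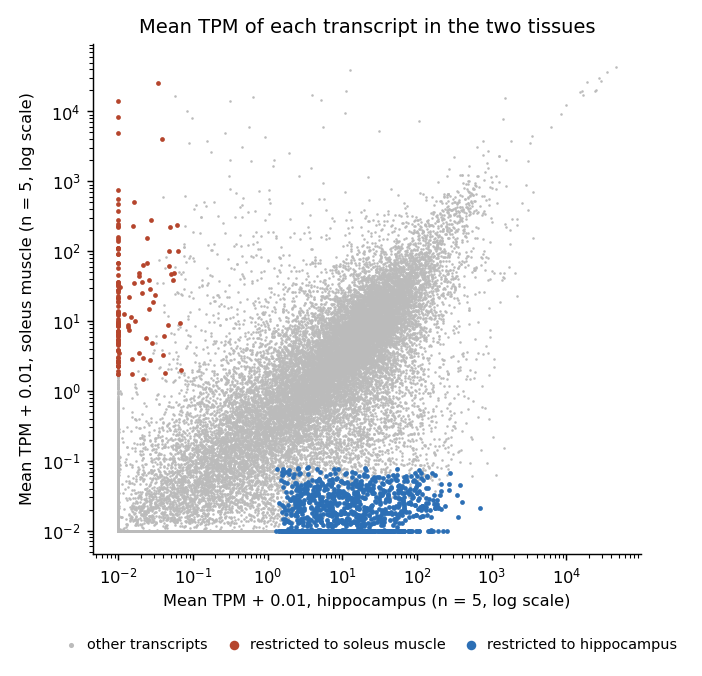
Mean TPM + 0.01 of each transcript in soleus muscle (vertical axis, n = 5, log scale) against hippocampus (horizontal axis, n = 5, log scale), with the 133 transcripts restricted to soleus muscle in red, the 1112 restricted to hippocampus in blue and the others in grey. The red points reach 25610 TPM and the blue points stay below 1000 TPM.

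In the other tissue these transcripts were near the limit of detection. Of the 133 soleus-restricted transcripts, 88 had 0 estimated counts in all 5 hippocampus samples, and of the 1112 hippocampus-restricted transcripts 426 had 0 in all 5 soleus samples. The soleus-restricted transcripts had a median length of 1374 bases and the hippocampus-restricted ones 2410 bases, beside 2029 and 2110 bases for all transcripts expressed in all 5 samples of each tissue. So the restricted lists differed in length more than the lists they were drawn from.

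Restriction between these 2 tissues was not restriction to one organ. Of the 133 soleus-restricted transcripts, 43 (32.3%) were at 1 TPM or more in all wild-type fat samples and 20 (15.04%) in all liver samples, and 45 (33.8%) were under 0.1 TPM in every sample of both. Of the 1112 hippocampus-restricted transcripts, 25 (2.25%) were at 1 TPM or more in all fat samples and 68 (6.12%) in all liver samples, and 521 (46.9%) were under 0.1 TPM in every sample of both. In a scale over the 4 wild-type tissues that runs from 0 for an even level to 1 for a single tissue (tau, from log2 of TPM + 1), 10867 of 21253 expressed transcripts were highest in hippocampus and 1693 in soleus muscle. At a tau of 0.8 or more there were 2623 of the former (24.1%) and 403 of the latter (23.8%). On this TPM scale, the share of strongly tissue-biased transcripts was close, while the number that peaked in the tissue differed. TPM is a share of each pool, and how the peaks fall under another scaling was not tested.

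The Tti2+/- rats, whose samples were not used to choose the transcripts, gave the same tissues in other animals. All 5 hippocampus samples were above all 5 soleus samples for 1098 of the 1112 hippocampus-restricted transcripts (98.7%), and the reverse held for 126 of the 133 soleus-restricted ones (94.7%). Over all 20667 transcripts tested in these rats, TPM was higher without overlap in hippocampus for 70.9% and in soleus muscle for 11.7%. The full rule was met again by 887 (79.8%) and 92 (69.2%). In these rats the number of transcripts at 1 TPM or more was 13231 ± 174 in soleus muscle and 18053 ± 133 in hippocampus. The 10 most abundant transcripts held 32.0% ± 1.61 and 24.95% ± 0.745 of the TPM, without overlap between the tissues (exact permutation p = 0.00794, n = 5 each). The TPM-weighted length was 1359 ± 26.3 and 1620 ± 21.97 bases. Of the transcripts called in wild-type rats, 5949 of those higher in soleus muscle (92.7%) and 7430 of those higher in hippocampus (92.5%) were called in the same direction in Tti2+/- rats, and 2 and 0 in the opposite one. The calls of the Tti2+/- rats numbered 6550 and 8144, of which these were 90.8% and 91.2%.

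Rats differed within each tissue by amounts that did not separate the tissues as long as hippocampus of rat 2 was included. The distance of a sample was the median, over tested transcripts, of the absolute difference between its log2 CPM and the mean of the other 4 rats. It was 0.189, 0.219, 0.202, 0.267 and 0.224 in soleus muscle of rats 2, 3, 4, 5 and 6 and 0.198, 0.288, 0.148, 0.145 and 0.139 in hippocampus of rats 1, 2, 3, 5 and 6. The highest value of all was hippocampus of rat 2, and 3 of the other 4 hippocampus samples were below every soleus sample. The means, 0.220 ± 0.0295 and 0.184 ± 0.0627, did not differ beyond this spread (adjusted p = 0.359, exact permutation test, n = 5 each). Without hippocampus of rat 2 the distances averaged 0.220 in soleus muscle and 0.137 in hippocampus (exact permutation p = 0.00794, 5 against 4). Each distance is taken from the other samples of its tissue, so the distances of a tissue are not independent. The p-values for distances, here and below, are therefore only a guide.

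**Figure D5:**
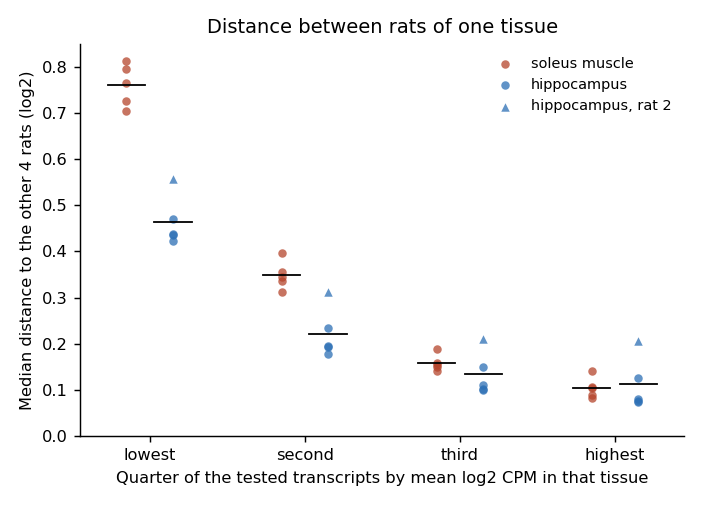
Median distance of each sample to the other 4 rats of its tissue (vertical axis, log2 units) for the tested transcripts divided into 4 classes of equal number by mean log2 CPM in that tissue (horizontal axis, lowest to highest), with 1 point per sample, a triangle for hippocampus of rat 2 and a bar at the mean. The distance falls from 0.761 to 0.104 in soleus muscle and from 0.465 to 0.112 in hippocampus.

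With all 5 rats of each tissue, the tissues separated among weakly expressed transcripts. In the lowest of 4 classes of equal number by level, the distance was 0.761 ± 0.0456 in soleus muscle and 0.465 ± 0.0544 in hippocampus, without overlap (adjusted p = 0.011, exact permutation test, n = 5 each). In the highest class it was 0.104 ± 0.0228 and 0.112 ± 0.0565 (adjusted p = 0.817). The classes were formed within each tissue, and the lowest one holds lower counts in soleus muscle, where more transcripts were at 0. CPM was scaled with TMM, so the same log2 CPM stands for fewer reads in soleus muscle, where the TMM factors were lower. In classes of the same log2 CPM, 2441 transcripts were under 0 in both tissues. Their median SD between rats was 0.930 in soleus muscle and 0.608 in hippocampus. For 2782 transcripts between 0 and 3 in both, it was 0.345 and 0.256. Without rat 2 the hippocampal values were 0.534 and 0.219. For 4734 transcripts between 3 and 6 log2 CPM in both tissues, the median SD between rats was 0.139 in soleus muscle, 0.128 in hippocampus and 0.0927 in hippocampus without rat 2. For 953 transcripts at 6 log2 CPM or more in both, it was 0.0980, 0.0941 and 0.0575. The part of counting error in these SDs was not tested.

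The same pattern appeared in edgeR's common biological coefficient of variation. It was 0.305 in soleus muscle and 0.300 in hippocampus. Leaving out rat 2 lowered the hippocampal value to 0.190, while leaving out any other hippocampus sample gave 0.302 to 0.322, and leaving out a soleus sample gave 0.286 to 0.317. Between samples of one tissue, the correlation of log2 of TPM + 1 across transcripts was 0.980 to 0.988 in soleus muscle. It was 0.984 to 0.988 among hippocampus samples of rats 1, 3, 5 and 6 and 0.972 to 0.974 between rat 2 and these. Between the tissues it was 0.688 to 0.715, and 0.689 to 0.704 between the 2 tissues of 1 rat. Transcripts are not independent replicates, and the samples of a tissue share its transcript pool, so these correlations are descriptions.

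The samples also differed between the tissues in how firmly reads could be assigned. Transcripts whose estimated count was not a whole number, within 0.001, held 27.7% ± 0.732 of the counts in soleus muscle and 44.3% ± 0.695 in hippocampus (adjusted p = 0.011, exact permutation test, n = 5 each). Reads of these transcripts were divided between transcripts that share sequence, so the values of single transcripts of such groups are less certain, and more so in hippocampus. The part of this difference in the numbers of transcripts expressed was not tested.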

How the data were processed

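Polyadenylated, strand-specific libraries were sequenced single-end from frozen tissue. The authors quantified each sample with kallisto (0.46.0 in the submitters' processing notes, which name rn6) against Ensembl transcripts with sequence-based bias correction. The deposited files give for each of 31715 transcripts a length, an effective length, an estimated count, which need not be whole, and a TPM that the authors' software scaled for effective length and library size. No table used here pairs the identifiers with genes, so planned gene marker lists were not run and no sequences are shown.

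Groups and rat numbers were taken from the labels. Estimated counts were rounded and fitted in R 4.3.3 with edgeR 4.0.16 (TMM, quasi-likelihood F-test, tissue as the only term), over transcripts with at least 5 counts in at least 47% of the 10 samples. Following the thresholds of the study, transcripts were called at 1.5-fold or more with a Benjamini-Hochberg adjusted p-value under 0.1. DESeq2 1.42.0 and limma 3.58.1 were alternatives. Single values were compared with exact permutation tests (two-sided) of the sample labels, with Benjamini-Hochberg adjustment over 25 values, and the 6 length classes were adjusted among themselves. The edgeR, DESeq2 and limma tests were tried on simulated counts in which a small part of the transcripts differed. In the data 70.0% were called, so the simulation could not check the choice of scaling. The permutation test was tried on fixed sets of values only. The comparison, its measures and its lists were chosen with earlier results of these data known. The transcripts named are the 2 called ones with the highest mean TPM on each side, and others are given by length or rank.

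Samples with the same rat number came from the same animal, and 4 rats gave both tissues. The correlation of their deviations from the tissue means was between -0.038 and 0.021 within a rat and between -0.041 and 0.034 between rats, and 1 of 4 soleus samples correlated best with its own rat. The rats of a tissue are separate animals. Counts of any 2 samples of a tissue differed by a chi-square of at least 6.38 per degree of freedom, so no sample was a copy of another. Total estimated counts were between 19176393 and 32713126 per sample, and limits from a count of 0 cover counting error only. The study left out 1 hippocampus sample that it did not name. All 5 were used here.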

Additional observations from a re-analysis of the deposited data

Results flagged for a closer look

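In 50 groups of 5 samples, 5 values stood farther from the rest of their group than Dixon's 95% limit allows, where chance gives about 2.5. In 3 of them the sample was hippocampus of rat 2. It had 1289 transcripts at 100 TPM or more, against 1426 to 1478 in the other 4. It had 8066 transcripts at 0 counts after rounding, against 8819 to 8964, and it was also the deepest of these libraries. Its effective length was 90.3% of the full length, against 89.4% to 89.6%. The other 2 were hippocampus of rat 1, with 17629 transcripts at 1 TPM or more against 17992 to 18095, and soleus muscle of rat 3, with a median length of 998.5 bases at 100 TPM or more against 1017 to 1024.5.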

How the results depend on the processing

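Scaling by total count gave 3067 transcripts higher in soleus muscle and 13132 higher in hippocampus, and a minimum of 10 counts in every sample left 4707 higher in hippocampus, since transcripts absent from one tissue then go untested. The other scalings, tests, filters and thresholds, and the removal of transcripts under 300 bases (chosen after seeing the data), kept both counts within 1.5 times. With the rat as a replicate block, 6232 and 7742 transcripts were called, and 13735 transcripts were called in the same direction with and without it. The paired differences over the 4 rats with both tissues, whose exact test of the signs cannot reach 0.05 and was not run, kept the direction of each single value, at -4639 transcripts at 1 TPM or more, 4.18 percentage points for the 10 most abundant, -314 transcripts for 50% of the TPM, -257 bases of weighted length, -64.5 bases of median length and 0.0446 of distance. Over transcripts at 0.1 TPM or more, the difference in median length was -3.4 bases. Under 0.5 TPM in the other tissue, 304 transcripts were restricted to soleus muscle and 2419 to hippocampus, and at 5 TPM or more in the tissue, 82 and 612. When samples were left out one at a time, with the tested transcripts kept, 6263 to 6526 and 7927 to 8166 transcripts were called, 134 to 169 and 1122 to 1223 were restricted, and the difference in distance ranged from 0.00938 to 0.0824, the latter without hippocampus of rat 2 and the only one to pass (exact permutation p = 0.00794). The causes of these changes were not tested. Transcripts under 300 bases were left out, alone or together with TPM from lengths without bias correction (both chosen after seeing the data). Each direction was kept where these settings were run. Distance was run under neither. Median length and the restricted transcripts were run only under both together, and the calls only without the short transcripts. Depth limits statements on transcripts below 0.0917 to 0.156 CPM, depending on the sample. In TPM this limit is higher for shorter transcripts. The number of samples limits single p-values.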

Other observations

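Among transcripts that peaked by TPM in soleus muscle over the 4 wild-type tissues, the next highest tissue was hippocampus for 861 (50.9%), fat for 676 (39.9%) and liver for 156 (9.21%). Among those that peaked in hippocampus it was fat for 7970 (73.3%), soleus muscle for 1762 (16.2%) and liver for 1135 (10.4%). Of all 21253 transcripts at a mean of 1 TPM or more in any of the 4 tissues, 6465 (30.4%) peaked in fat and 2228 (10.5%) in liver. The share at a tau of 0.8 or more was highest among those that peaked in liver, at 34.8%, and lowest among those that peaked in fat, at 10.6%.

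Transcripts called higher in hippocampus had a median SD between rats of 0.420 in soleus muscle and 0.259 in hippocampus on the log2 CPM scale, and those called higher in soleus muscle 0.191 and 0.234. Each set varied more between rats in the tissue where its level was lower.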
